A study of Actinidia chinensis with 12 samples.

Results

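In ripened kiwifruit, 67 of 22199 tested genes were at least 2-fold lower in the flesh core than in whole fruit of the cultivar Jinyan and at least 2-fold higher in the core than in whole fruit of the cultivar Hongyang. They are called the crossing genes here. They made up 0.302% of the tested genes. The data are RNA-seq counts from 12 libraries of Actinidia chinensis fruit, taken ripe at harvest, with 3 libraries in each of 4 groups: Jinyan whole fruit, Jinyan core, Hongyang whole fruit and Hongyang core. No treatment separates the groups, and neither fruit age nor the number of fruits behind a library is given in the sources used here. Where the sample labels say whole fruit, the design text names the periphery of the fruit instead; the sample label is kept here.

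A kiwifruit is a berry in which a pale central core of storage parenchyma and vascular strands is surrounded by an inner pericarp, which carries the seeds, and an outer pericarp. Hongyang is known for red, anthocyanin-coloured flesh in the inner pericarp next to its core, and Jinyan for yellow flesh. A bulk library mixes all cell types of the piece that was ground, so that fewer cells of a type and less RNA per cell cannot be told apart. The deposited identifiers are not paired with gene names, so the crossing genes are given by identifier, no function is assigned to any of them, and the tissue labels were not checked against marker genes.

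The genes were selected on the measured levels themselves. Levels are in CPM, counts per 1000000 counts of a library size scaled by TMM factors, and each group was represented by its median library plus 1 CPM. A crossing gene had a ratio of at least 2 of Jinyan whole fruit over Jinyan core, a ratio of at least 2 of Hongyang core over Hongyang whole fruit, and a median plus 1 of at least 6 CPM in at least 1 group. Genes with an 8-fold or larger cultivar ratio in both tissues were to be dropped, which removed none, since 67 genes met the other conditions as well. All tissue differences below are therefore a description of how the genes were chosen. The gene just inside the fold threshold had ratios of 2.00 in Jinyan and 2.48 in Hongyang, and the nearest gene outside had 2.68 and 1.98. At the floor on the level, the lowest crossing gene reached a highest group median of 6.15 CPM and the nearest gene outside 4.07 CPM.

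Among the 1267 genes that were at least 2-fold lower in the Jinyan core and met the floor on the level, 67 were at least 2-fold higher in the Hongyang core, 331 were at least 2-fold lower there as well, and 869 lay within 2-fold in Hongyang. With both directions exchanged, 20 genes were at least 2-fold higher in the Jinyan core and at least 2-fold lower in the Hongyang core. By the same thresholds, floor and drop rule, 328 genes were lower and 345 higher in both cores. These counts are set side by side without a test.

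**Figure D1:**
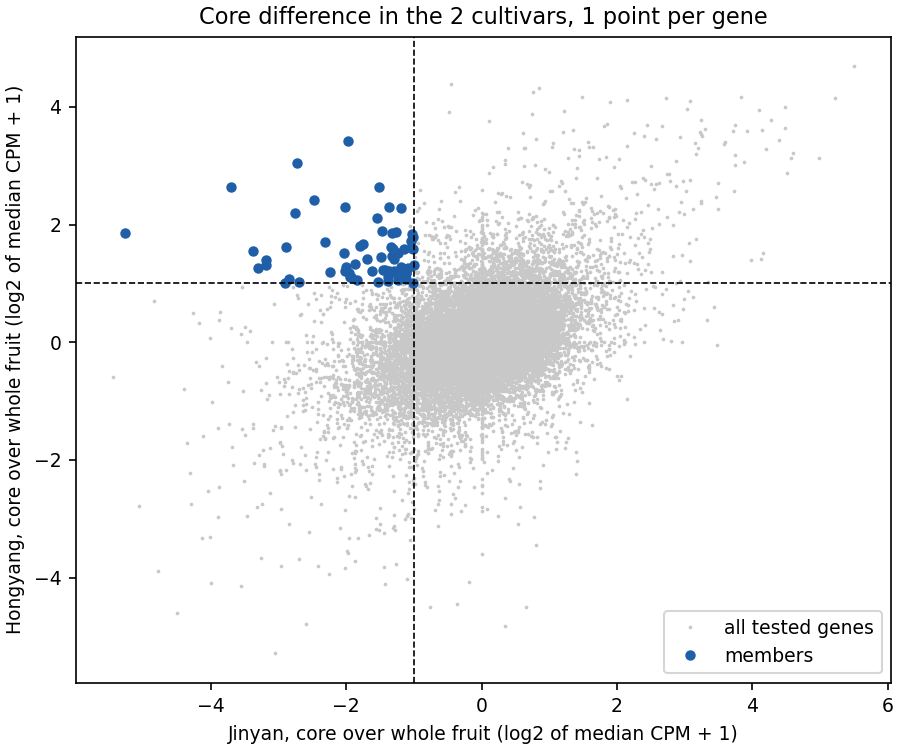
Each point is 1 tested gene, with the log2 ratio of core over whole fruit (median CPM + 1) in Jinyan on the horizontal and in Hongyang on the vertical axis; dashed lines mark the 2-fold thresholds. The 67 crossing genes (blue) fill the upper left corner, most of them close to the thresholds, with the largest Jinyan ratio at -5.26 on the log2 scale.

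Hongyang whole fruit replicate 3 was shallow, with a total of 1888744 counts, while totals of the other 11 libraries lay between 6870519 and 21222578. In the shallow library 25 of the 67 crossing genes had fewer than 10 counts and 15 had 0, against 0 to 8 genes under 10 counts in each other library. The crossing genes together took 0.607 to 0.758% of all counts in Jinyan whole fruit and 0.144 to 0.206% in Jinyan core. In Hongyang their share was 0.232 to 0.295% in whole fruit and 0.446 to 1.00% in the core. One gene, Achn340321, held the most counts among them in every library, between 23.1 and 56.4% of the counts of the crossing genes.

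Membership depended on single Hongyang libraries. Without Hongyang whole fruit replicate 3 the rule found 45 genes, 40 of them among the 67. It found 38 genes, all among the 67, without Hongyang core replicate 2, and 108, of which 66 were among the 67, without Hongyang core replicate 1. Without Hongyang whole fruit replicate 2 it found 94 genes, 63 of them among the 67. It found 63 genes without Hongyang whole fruit replicate 1 as well, of which 46 were among the 67. With 1 Jinyan library left out the rule found 63 to 73 genes, and 56 to 65 of the 67 were among them. In all 12 fits that each left out 1 library, 18 crossing genes met the rule, and 43 met it in at least 10 of the 12.

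The decrease in the Jinyan core was small for most crossing genes and large for a few. The ratio of whole fruit to core had a median of 2.79 and ran up to 38.3. It stayed under 3 for 38 genes, reached 4 for 19 and reached 8 for 6. The 3 whole fruit libraries all lay above the 3 core libraries for 64 of the 67 genes. Such an order was found for 22.2% of all tested genes; since the rule used this contrast, nothing is read from the comparison. The edgeR quasi-likelihood test called 50 of the 67, all of them lower in the core of Jinyan, beside 16.6% of tested genes called in either direction, 8.46% lower and 8.15% higher. The count fell without any single Jinyan library, and the share of all tested genes called fell too. It was 18 without Jinyan whole fruit replicate 2, beside 5.98% of tested genes. Without Jinyan core replicate 2 or 3 it was 21, beside 6.06 and 7.43%. Without Jinyan whole fruit replicate 1 or 3 it was 31, beside 6.78 and 6.82%. Without Jinyan core replicate 1 it was also 31, beside 2514 of 22860 tested genes.

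Achn087551 had the largest Jinyan ratio, also among the genes whose libraries did not overlap in either cultivar. Its level was 42.6, 109 and 38.2 CPM in Jinyan whole fruit replicates 1, 2 and 3, and 0.735, 0 and 0.138 CPM in Jinyan core. In Hongyang it was 31.9, 76.2 and 19.9 CPM in whole fruit and 85.2, 354 and 119 CPM in core. Transcripts of this gene were thus close to missing from the Jinyan core, whereas the other groups held them in every library, and no library of a tissue overlapped with the other tissue of its cultivar. The group means were 63.2 ± 39.5, 0.291 ± 0.391, 42.6 ± 29.7 and 186 ± 146 CPM (SD, n = 3 each) in the same order of groups. The ratio of medians was 38.3 in Jinyan and 3.64 in Hongyang. The gene met the rule in all 12 fits that left out 1 library.

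Among the genes without overlap, Achn387691 came next, with a ratio of 9.08 in Jinyan and 2.48 in Hongyang. Jinyan whole fruit stood at 14.9, 18.5 and 3.23 CPM and Jinyan core at 0.490, 1.93 and 0.757 CPM. Hongyang whole fruit stood at 3.71, 10.1 and 4.37 CPM and Hongyang core at 10.2, 32.1 and 12.3 CPM. Jinyan whole fruit replicate 3 lay near the core libraries, and Hongyang whole fruit replicate 2 reached almost the lowest Hongyang core library. Group means were 12.2 ± 8.01 and 1.06 ± 0.763 CPM in Jinyan whole fruit and core, and 6.08 ± 3.54 and 18.2 ± 12.1 CPM in Hongyang whole fruit and core (SD, n = 3 each).

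The increase in the Hongyang core was of like median size but less uniform between libraries. The ratio of core to whole fruit had a median of 2.65 and ran up to 10.7; it stayed under 3 for 41 genes and reached 4 for 10. The 3 core libraries all lay above the 3 whole fruit libraries for 33 of the 67 genes, beside 14.4% of all tested genes, and for 31 genes the libraries of the tissues did not overlap in either cultivar, beside 1.31% of tested genes. In 30 genes, Hongyang whole fruit replicate 2 was at or above the lowest core library. With that library set aside, the core libraries lay above the remaining whole fruit libraries for 54 genes. Setting a library aside can only raise such a count. The share of all tested genes was not computed for either count, and nothing is read from them.

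The edgeR test called 22 of the 67 genes, all of them higher in the Hongyang core, beside 4.68% of tested genes in either direction, 2.50% higher and 2.18% lower; the rule used this contrast too. This count moved with single libraries, and so did the share of all tested genes called. It was 49 without Hongyang whole fruit replicate 2, beside 19.2% of tested genes. Without Hongyang core replicate 2 it was 2, beside 1.16%, and without Hongyang core replicate 3 it was 4, beside 1.58%. Without Hongyang whole fruit replicate 1, edgeR called 0 of the 67 genes, beside 0.758% of tested genes, although 43 had an unadjusted p under 0.05. When the 6 Hongyang libraries were filtered, scaled and fitted alone, with 20752 genes tested, edgeR again called 0, with 44 at an unadjusted p under 0.05 and 0.366% of all tested genes called. DESeq2, run on all 12 libraries only, called 37, beside 11.7% of tested genes.

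Achn030701 had the largest Hongyang ratio, 10.7, beside a ratio of 3.94 in Jinyan. The edgeR test called this gene in neither core difference (adjusted p = 0.081 in Hongyang and 0.16 in Jinyan). The level of Achn030701 was 295, 233 and 226 CPM in Hongyang core and 20.8, 80.1 and 0 CPM in Hongyang whole fruit. In Jinyan it was 17.3, 9.45 and 8.22 CPM in whole fruit and 1.65, 6.36 and 0.895 CPM in core. The core libraries of Hongyang lay close together and above every other library, while its whole fruit libraries were spread from 0 counts to 80.1 CPM. Means were 251 ± 37.8 CPM in Hongyang core and 33.6 ± 41.6 CPM in Hongyang whole fruit, against 11.7 ± 4.93 CPM in Jinyan whole fruit and 2.97 ± 2.96 CPM in Jinyan core (SD, n = 3 each).

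Among the genes without overlap in either cultivar, Achn088011 followed, with a ratio of 6.19 in Hongyang and 2.87 in Jinyan. Hongyang core stood at 20.5, 24.4 and 15.8 CPM and Hongyang whole fruit at 2.47, 6.12 and 2.38 CPM. Jinyan whole fruit stood at 9.97, 33.1 and 21.4 CPM and Jinyan core at 2.51, 9.38 and 6.81 CPM. Here the high groups of the cultivars overlapped, with means of 20.2 ± 4.34 CPM in Hongyang core and 21.5 ± 11.6 CPM in Jinyan whole fruit (SD, n = 3 each). The low groups, at 3.66 ± 2.13 CPM in Hongyang whole fruit and 6.23 ± 3.47 CPM in Jinyan core (SD, n = 3 each), overlapped too.

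Achn340321, singled out after its values were seen because it held the most counts, crossed in the same way. It stood at 2520, 2732 and 3303 CPM in Jinyan whole fruit and at 566, 1091 and 1481 CPM in Jinyan core. Hongyang whole fruit stood at 868, 691 and 836 CPM and Hongyang core at 1812, 3031 and 3820 CPM. The tissues of neither cultivar overlapped, and the ratios of medians were 2.503 in Jinyan and 3.62 in Hongyang.

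**Figure D2:**
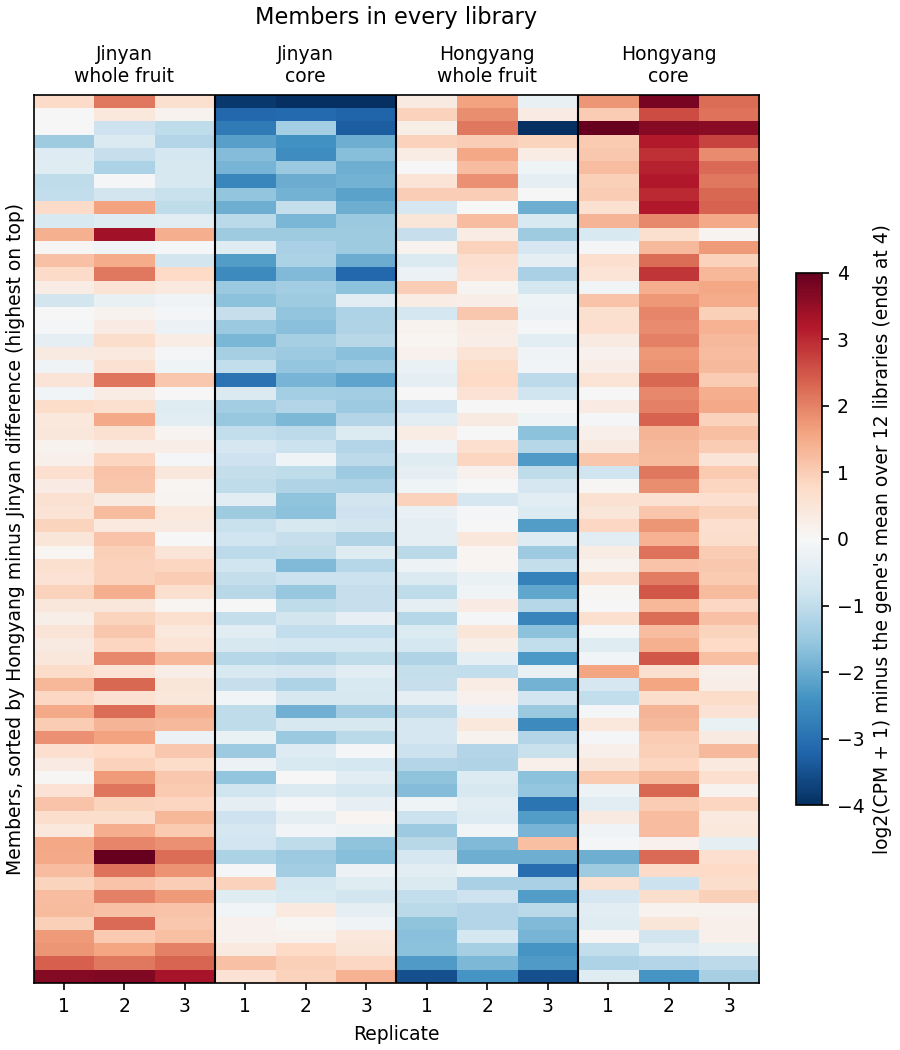
Rows are the 67 crossing genes and columns the 12 libraries; colour is log2(CPM + 1) minus the mean of the gene over all libraries, with the colour scale ending at 4 in either direction, and rows are sorted by the cultivar difference averaged over the tissues. Jinyan core is below the mean for most genes, and Hongyang core replicate 2 is above it.

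Averaged over the crossing genes, the level on the log2(CPM + 1) scale was 4.66, 5.13 and 4.59 in Jinyan whole fruit replicates 1, 2 and 3, and 3.04, 2.97 and 3.00 in Jinyan core. In Hongyang it was 3.57, 4.13 and 2.90 in whole fruit and 4.33, 5.61 and 5.05 in the core. The Jinyan core libraries were nearly level, whereas the Hongyang libraries of either tissue were spread widely, and Hongyang whole fruit replicate 2 came close to Hongyang core replicate 1. As means of libraries, the groups stood at 4.79 ± 0.294, 3.00 ± 0.0323, 3.53 ± 0.617 and 4.995 ± 0.644 (SD, n = 3 each) in the same order. The mean over all tested genes on this scale was 3.06 to 3.30 in every library, lowest in the shallow Hongyang whole fruit replicate 3.

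**Figure D3:**
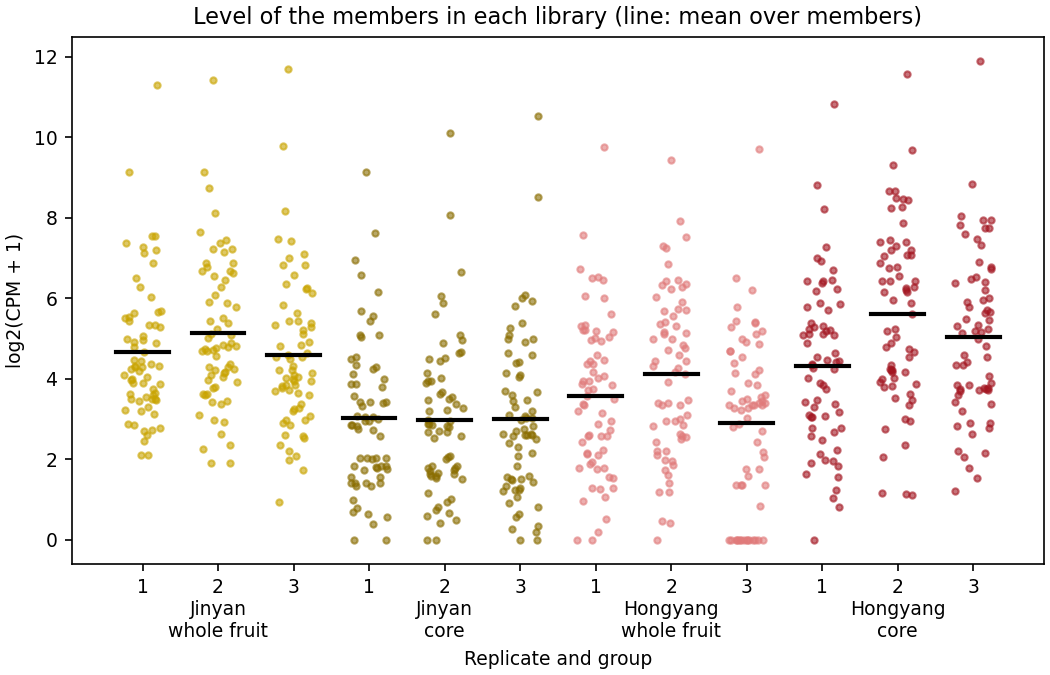
Points are the 67 crossing genes in each of the 12 libraries, on the log2(CPM + 1) scale, and the black line is their mean. The means run from 2.90 in Hongyang whole fruit replicate 3 to 5.61 in Hongyang core replicate 2; the Jinyan core means, from 2.97 to 3.04, lie closest together, and points at 0 are genes without counts, 15 of them in Hongyang whole fruit replicate 3.

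Some libraries were the highest of their group more often among the crossing genes than among all genes. Hongyang core replicate 2 held the highest level of its group for 53 of the 67 genes (79.1%), beside 34.5% of all tested genes. Jinyan whole fruit replicate 2 was the highest of its group for 46 genes (68.7%), beside 32.7% of tested genes. In Hongyang whole fruit, replicate 2 was the highest for 54 genes (80.6%), beside 41.5% of tested genes, and the shallow replicate 3 the lowest for 51 (76.1%), beside 50.2%. For 36 crossing genes replicate 2 was the highest in all 3 of these groups at once, which held for 6.31% of tested genes. In Jinyan core no library stood out, with 29, 18 and 20 genes highest in replicates 1, 2 and 3.

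**Figure D4:**
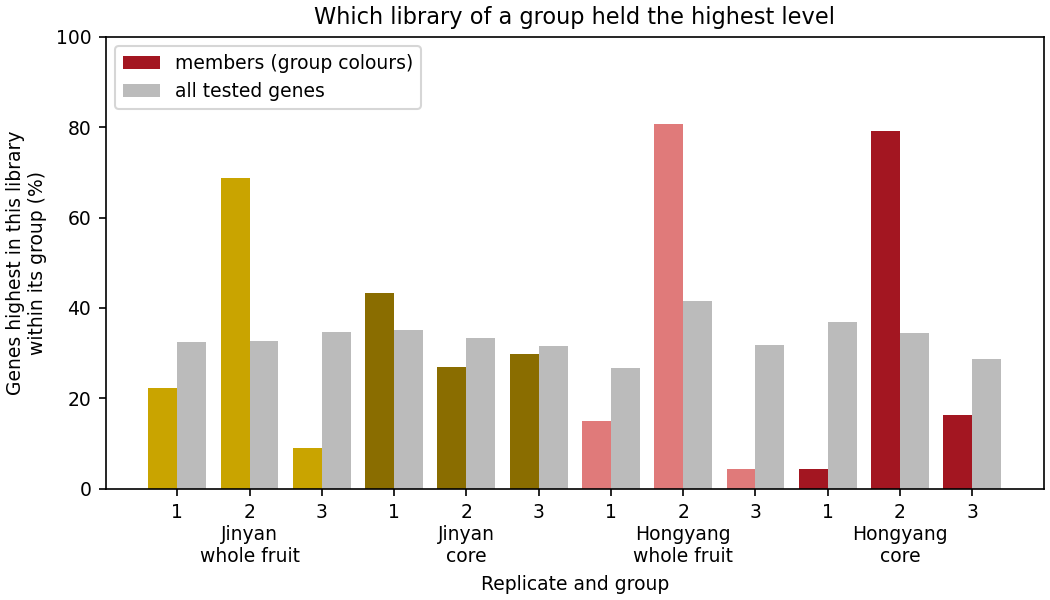
Bars give, for each library, the percentage of genes whose level was the highest within its group of 3 libraries, coloured for the 67 crossing genes and grey for all 22199 tested genes. Replicate 2 holds 68.7% of the crossing genes in Jinyan whole fruit, 80.6% in Hongyang whole fruit and 79.1% in the core of Hongyang, and the grey bars stay between 26.7 and 41.5%.

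The excess of Hongyang core replicate 2 was large for part of the genes: it was at least 2-fold above both other core libraries for 19 crossing genes, beside 2.05% of tested genes, and the median ratio to the higher of the other core libraries was 1.42. Jinyan whole fruit replicate 2 was at least 2-fold above both others for 9 crossing genes, beside 2.30% of tested genes. Deviations of the replicate 2 libraries from their group means on the log2(CPM + 1) scale were also compared gene by gene. Between Jinyan whole fruit and Hongyang core, Pearson r was 0.571 across the 67 genes and 0.0381 across all tested genes. Between Hongyang whole fruit and its core it was 0.183 and 0.135, and between the whole fruit libraries of the cultivars 0.0263 and 0.0636, so both pairs with Hongyang whole fruit lay near the values over all tested genes. The genes share libraries, were chosen on these same levels and are not independent replicates. Same-numbered libraries of different groups are not known to share a fruit, a tree or a day.

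Crossing genes also moved together within groups. Between any pair of them, the deviations of the 12 libraries from their group means correlated with a median r of 0.574 (quartiles 0.217 and 0.752 over 2211 pairs). Among 2220 tested genes, taken at every 10 rows of the table, the median was 0.0376 (quartiles -0.350 and 0.414). All genes share the same 12 libraries, and the rule chose the crossing genes on these same levels. The correlation and the spreads that follow are therefore a description. How far the selection shaped them was not tested. The within-group SD on the log2(CPM + 1) scale had a median of 0.796 over the crossing genes in Hongyang core against 0.201 over tested genes, and of 0.748 against 0.484 in Hongyang whole fruit. In Jinyan whole fruit it was 0.349 against 0.204, and in Jinyan core 0.307 against 0.229. The biological coefficient of variation fitted by edgeR had a median of 0.382 for the crossing genes and 0.278 for all tested genes, and 61 of the 67 lay above the latter.

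The difference between the cultivars averaged over both tissues was tested for every gene. The rule touched it through the drop of genes 8-fold apart in both tissues, which removed none, and through the floor on the level. It fixed no direction for this difference. The edgeR test called 35 of the 67 crossing genes (52.2%), beside 40.9% of all tested genes. Of these, 27 (40.3%) were higher in Hongyang, beside 23.0% of tested genes, and 8 (11.9%) were higher in Jinyan, beside 18.0%. The remaining 32 did not pass. The median log2 difference was 0.58 over the crossing genes and 0.11 over all tested genes. Fits that each left out 1 library called between 28 and 41 of the 67 genes, beside 34.4 to 44.8% of tested genes. With only genes at a mean of at least 5 CPM tested, edgeR called 33 of the 60 crossing genes left, beside 48.4% of tested genes. How far the floor on the level shaped these counts was not tested.

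The levels of the called genes are given for their size alone, since the rule leaves only Jinyan core and Hongyang whole fruit as possible lowest groups and the split by cultivar favours one of them. The 27 genes higher in Hongyang had a median over genes of 4.27 CPM in Jinyan core, 15.4 CPM in Jinyan whole fruit, 19.6 CPM in Hongyang whole fruit and 51.7 CPM in the core of Hongyang. The 8 genes higher in Jinyan had 26.8 CPM in Jinyan whole fruit, 10.03 CPM in Jinyan core, 1.64 CPM in Hongyang whole fruit and 6.26 CPM in the core of Hongyang. Their log2 differences ran from 0.65 to 4.31 in the first set and from -5.12 to -0.94 in the second. Replicate 2 was the highest library in Jinyan whole fruit, Hongyang whole fruit and Hongyang core at once for 18 of the 27 genes higher in Hongyang, for 17 of the 32 that did not pass and for 1 of the 8 higher in Jinyan (Achn372801, named because it was the single one). These sets were formed after the test and are described without a further one.

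**Figure D5:**
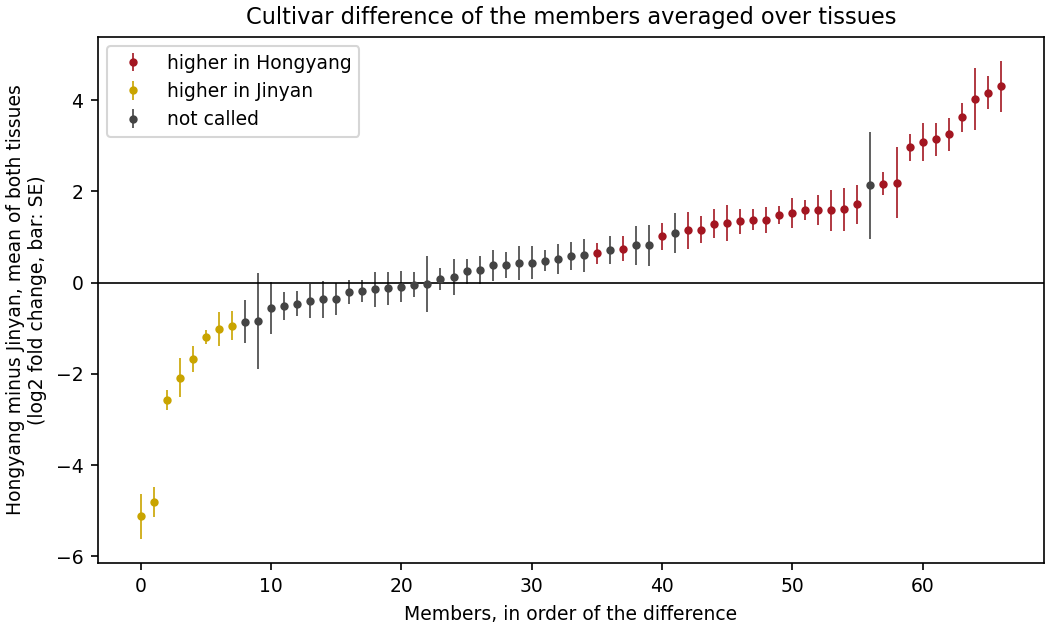
Points are the log2 fold changes of Hongyang over Jinyan, averaged over whole fruit and core, for the 67 crossing genes in order, with the SE as bars; colours mark the 27 genes called higher in Hongyang, the 8 called higher in Jinyan and the 32 not called. The differences run from -5.12 to 4.31.

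Achn087551, given above for Jinyan, was also the crossing gene with the largest excess in Hongyang, a log2 difference of 4.31 ± 0.56 (SE, edgeR adjusted p = 5.1e-05). The core set this average: every Hongyang core library, at 85.2 to 354 CPM, stood above the Jinyan core libraries at 0 to 0.735 CPM, while in whole fruit the cultivars overlapped. Achn262471 came next, with a log2 difference of 4.17 ± 0.36 (SE, edgeR adjusted p = 1.3e-06). It stood at 22.5, 70.3 and 51.7 CPM in Hongyang core and at 20.9, 41.4 and 13.5 CPM in Hongyang whole fruit. In Jinyan it stood at 10.6, 14.7 and 11.9 CPM in whole fruit and at 0.306, 0.335 and 0.275 CPM in core. In this gene the Hongyang tissues overlapped, and the Jinyan core was the group set apart, with a mean of 0.305 ± 0.0298 CPM (SD, n = 3) that rests on 4 or 5 counts per library.

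The crossing genes with the largest excess in Jinyan were close to absent from Hongyang whole fruit. Achn336541 stood at 147, 149 and 112 CPM in Jinyan whole fruit and at 16.2, 20.8 and 29.3 CPM in Jinyan core. In Hongyang it had 0, 23 and 0 counts in whole fruit replicates 1, 2 and 3 and stood at 7.23, 1.25 and 3.60 CPM in core. All 6 Jinyan libraries lay above all 6 Hongyang libraries, the Hongyang tissues overlapped through 1 library of each, and the log2 difference averaged over tissues was -5.12 ± 0.49 (SE, edgeR adjusted p = 3.8e-06). Achn226171 stood at 24.3, 19.8 and 23.3 CPM in Jinyan whole fruit and at 9.74, 8.29 and 7.57 CPM in Jinyan core. In Hongyang it had 0, 7 and 0 counts in whole fruit and stood at 1.05, 1.16 and 1.33 CPM in core, a log2 difference averaged over tissues of -4.81 ± 0.33 (SE, edgeR adjusted p = 1.9e-07). All Hongyang whole fruit counts of these genes lay in replicate 2, without which the fitted differences were -8.13 and -7.00, values that depend on the prior count and are no bounds.

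Within each tissue the cultivar difference was constrained by the rule, which fixes all 4 groups, and the following counts are a description. In whole fruit, edgeR called 30 crossing genes lower and 5 higher in Hongyang, 35 in all, beside 24.8% of tested genes (11.1% lower and 13.7% higher). That count was 20 without Jinyan whole fruit replicate 2, beside 15.7% of tested genes. It was 22 without Hongyang whole fruit replicate 1, beside 18.0%. In core it called 53 higher and 3 lower in Hongyang, 56 in all, beside 30.0% of tested genes (16.0% higher and 13.9% lower). The median log2 difference of Hongyang minus Jinyan was -1.16 in whole fruit and 2.40 in core over the crossing genes, and 0.08 and 0.11 over all tested genes.

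The rule leaves either Hongyang core or Jinyan whole fruit as the highest group of a crossing gene. Hongyang core had the highest group median for 42 of the crossing genes and Jinyan whole fruit for 25. Jinyan core had the lowest group median for 42 genes and Hongyang whole fruit for 25. For 37 genes the high and the low group of Hongyang both lay above their counterparts in Jinyan, for 20 both lay below, and the remaining 10 were mixed. Whether single genes differed between the high groups was not tested apart from the averaged cultivar difference.

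The interaction, the core difference of Hongyang minus that of Jinyan, is the contrast the rule selects on. In it edgeR called 48 of the 67 genes, all positive, as the Jinyan difference was negative and the Hongyang difference positive. The size of the ratio was larger in Jinyan for 40 of the 67 genes and in Hongyang for 27. Of tested genes 2.25% were called, 1.25% in that direction and 1.00% in the other, and nothing is read from the 48. The interaction count was 27 without Jinyan whole fruit replicate 2, Jinyan core replicate 2 or Hongyang core replicate 2. Beside it stood 0.649, 0.699 and 0.688% of tested genes. It was 28 without Jinyan core replicate 1 (0.923%), 29 without Hongyang whole fruit replicate 1 (1.03%) and 30 without Jinyan core replicate 3 (0.935%). Scaling by library totals alone moved the median gene of the Jinyan core difference from 0.04 to -0.40 on the log2 scale, that of the Hongyang core difference from 0.01 to -0.19 and that of the averaged cultivar difference from 0.11 to 0.30. With that scaling the rule found 74 genes, 47 of them among the 67.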

How the data were processed

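Poly(A) RNA of 12 ripe kiwifruit libraries was sequenced in pairs on Illumina HiSeq instruments of different models, per the labels' protocols; no source used here says which model read which library, so no sequencing batch was examined. Raw counts for 39040 identifiers, with 1 column per library, are what the authors deposited. The submitters' processing notes name Trimmomatic 0.36 and HISAT2 2.1.0. For the counting program, genome build, annotation and handling of reads with several alignments the sources used here give nothing, so counts of near-identical or overlapping genes are uncertain. Among counts of 1 to 20, 56.2 to 60.3% were even.

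After filterByExpr on the 4 groups, 22199 genes were scaled by TMM and fitted as 4 group means over 12 libraries with edgeR 4.0.16 in R 4.3.3 (estimateDisp, glmQLFit, glmQLFTest); a gene was called at a two-sided Benjamini-Hochberg adjusted p under 0.05 over all tested genes. SEs are the absolute log2 fold change over the square root of F. In equal levels the lower replicate number counted as highest or lowest. Alternatives were DESeq2 1.42.0, other scalings, filters and thresholds, thinned counts, a replicate block and leaving out libraries. The fit and the rule were tried on simulated data. The genes made to meet the rule were set well above its fold threshold, so that trial says nothing about genes near it. The genes, tests and naming rule were chosen with earlier results of these data known. That rule names the 2 genes with the largest ratio in each cultivar among those without overlap, and the 2 called genes with the largest cultivar difference in each direction. Whether replicates came from separate fruits is not stated, so p-values cover the spread between libraries alone. Counts of any pair of replicates differed by more than sampling noise, with a chi-square of 5.76 to 126 per degree of freedom. Lists of pigment, sugar, cell wall, hormone and tissue marker genes by product name could not be matched to identifiers and gave no result.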

Additional observations from a re-analysis of the deposited data

Results flagged for a closer look

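For 31 of the 67 crossing genes the libraries of the tissues overlapped in neither cultivar and moved in opposite directions, beside 1.31% of tested genes. The difference between the cultivars was not tested for this count, and the rule chose the genes on these contrasts. The interaction test called 48 of the 67 genes, again on the contrast that chose them, beside 2.25% of tested genes, 1.25% in that direction.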

How the results depend on the processing

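The rule found 248 genes at a minimum fold of 1.5 and 11 at a minimum of 3, against 67, and 38 to 108 with 1 library left out. Other scalings, group means, a higher floor, no filter and thinned counts gave 60 to 89. Group means gave 74 genes, 49 of them among the 67, and thinned counts gave 89, 52 of them among the 67. Of the 67 crossing genes, those called higher in the Hongyang core numbered 22 by edgeR, 34 with no filter on low counts and 37 by DESeq2. Of all tested genes, 4.68, 4.57 and 11.7% were called in either direction. The number was 0 when the 6 Hongyang libraries were fitted alone (44 at an unadjusted p under 0.05), beside 0.366% of tested genes. With 1 library left out it was 0 to 49, beside 0.758 to 19.2%. The Jinyan core count of 50 ran from 18 to 61 with 1 library left out, beside 5.98 to 27.7% of tested genes. When the 6 Jinyan libraries were fitted alone it was 67, beside 35.1%, on a contrast that the rule used. The interaction count of 48 ran from 27 to 61, beside 0.649 to 8.19%. The whole fruit cultivar count of 35 ran from 20 to 40, beside 15.2 to 29.1%. Without all libraries numbered 2, chosen after seeing the data, the rule found 69 genes, 46 of them among the 67. The counts were then 24 for the Jinyan core, beside 5.85% of tested genes, and 17 for the interaction, beside 0.259%. The cause was not tested. The averaged cultivar count of 35 ranged from 28 to 41 over all alternatives, beside 30.2 to 48.4% of tested genes. The core cultivar count of 56 stayed within 1.5 times throughout, beside 18.7 to 43.7%.

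Whether replicate numbers pair samples is not stated in the sources used here. Over all tested genes, deviations of same-numbered libraries correlated at -0.0709 to 0.245, over 0.1 in 3 of 18 pairs. These values cannot decide whether such libraries share a fruit, a tree or a day. With a replicate block the counts were 52 in Jinyan, 28 in Hongyang, 54 for the interaction and 37 for the averaged cultivar difference. Of all tested genes, 15.8, 3.85, 1.97 and 39.2% were called, in the same order. Hongyang whole fruit replicate 3, with 1888744 counts, limits the low levels: 15 crossing genes had 0 counts there.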

Other observations

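Among the 67 crossing genes, 3 pairs carried identifiers that follow each other directly in number; no source used here says whether the numbering follows position in the genome, and the pairs were singled out after their values were seen. Achn330321 and Achn330331 moved closely together, with a Pearson r of 0.958 between their log2(CPM + 1) levels over the 12 libraries and 0.913 between their deviations from the group means. Achn330321 stood at 18.0, 28.7 and 24.1 CPM in Jinyan whole fruit, 7.23, 8.71 and 11.9 CPM in Jinyan core, 6.32, 14.2 and 1.59 CPM in Hongyang whole fruit and 24.1, 74.9 and 35.03 CPM in Hongyang core. For Achn387661 and Achn387671 these correlations were 0.893 and 0.660, and for Achn372791 and Achn372801 they were 0.635 and 0.577. Each is a description over 12 libraries that fall into 4 groups the rule had set apart, and reads shared between near-identical copies were not examined.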
